A study of Mus musculus with 48 samples.

Results

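The cells described here are *Pomc*+ neurons of the mouse hypothalamus at E18.5, late in gestation, chosen from single-cell RNA sequencing counts by their own UMIs. UMIs tag single transcript molecules before amplification, so that each UMI counts as 1 molecule caught. A cell was a member if it held at least 2 UMIs of *Pomc*, 0 UMIs of the pituitary hormone genes *Cga* and *Tshb*, and a UMI of at least 3 of the 6 neuronal genes *Stmn2*, *Tubb3*, *Snap25*, *Syt1*, *Elavl4* and *Rbfox3*. This rule took 146 of the 14121 cells, 55 of 7186 in control and 91 of 6935 in *Eed-cKO*. The *Pomc* values themselves chose the members, and the rule was set with the higher *Pomc* level of *Eed-cKO* embryo sums already known. *Pomc* levels, and the share of neurons that are members, are therefore given as a description, with no test between genotypes. Other neurons, used for comparison, met the same neuronal rule and held 0 UMIs of *Pomc*, *Cga* and *Tshb*. They numbered 5668 in control and 4850 in *Eed-cKO*.

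Control embryos carried the floxed *Eed* allele on both chromosomes (Eed fl/fl) and no Cre, and *Eed-cKO* embryos carried the same alleles with 1 copy of *Sox1-Cre* (Eed fl/fl; Sox1-Cre/+). *Eed* encodes a core subunit of polycomb repressor complex 2 (PRC2), which places the repressive histone mark H3K27me3. *Sox1-Cre* is a Cre insertion at a neural gene, so cells from outside the neural tube keep *Eed* in mutants too. The 48 libraries came from 6 control and 9 *Eed-cKO* hypothalami, 22 and 26 libraries, respectively, and were summed per embryo, which is the replicate throughout. The control embryos were 2 females and 4 males, and the *Eed-cKO* embryos 5 females and 4 males.

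*Pomc* (GRCm38 chr12:3954951-3960642) encodes pro-opiomelanocortin, a precursor that prohormone convertases cut into peptides such as α-MSH and β-endorphin in the hypothalamus and ACTH in the pituitary. In the arcuate nucleus, *Pomc* neurons restrain food intake through melanocortin receptors, and they are opposed by neighbouring neurons that make AGRP and NPY. Their identity is set during development by transcription factors that include ISL1, NKX2-1, TBX3 and PRDM12. The anterior and intermediate lobes of the pituitary, of oral ectoderm origin and below the hypothalamus, also make *Pomc*, in corticotropes and melanotropes, respectively. These cells are specified by TBX19 together with factors such as PITX1, LHX3 and PAX7.

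Libraries held 1112165 to 4513505 UMIs in control and 576432 to 2410229 in *Eed-cKO*, and the median cell among *Pomc*+ neurons held 5717 and 5896 UMIs. Members came from 18 of 22 control and 22 of 26 *Eed-cKO* libraries. Read from the leading number of the library names, which the labels do not explain, there were 4 control and 6 *Eed-cKO* litters, and 0 litters held both genotypes, so litter and genotype cannot be told apart. Of 14019 cell barcodes, 101 occurred in more than 1 library, 3 members among them, and the highest correlation of counts in such a pair was 0.597, against 0.681 among 2000 random pairs. *Eed* itself measured 31.6 ± 2.11 CPM (SD, n = 6; CPM, here and throughout, are UMI counts scaled to one common total for every sum) in control and 24.1 ± 2.57 (n = 9) in *Eed-cKO* over all cells. Its 3′ tag lies outside the floxed exons, so that level checks no label. 2 *Eed-cKO* libraries, F502_E9S4 and F0589_E1S4, were set apart because they held the most members with at least 2 non-neural markers, 11 and 7 of 23. Of their neurons, 19.2% and 22.9% carried markers of at least 2 non-neural genes, against a median of 3.78% (range 0.643 to 22.1%) elsewhere. The highest of the other libraries thus lay above F502_E9S4. In these 2 libraries, 12.7% and 11.7% of neurons held a *Pomc* UMI. The *Pomc*+ share, the positive classes and the counts of called genes are given with and without them. Since a count of members chose these libraries, leaving them out is no independent check.

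The typical *Pomc*+ neuron held few *Pomc* molecules in either genotype. The median was 4 UMIs in control and 4 in *Eed-cKO*, and 17 (30.9%) and 26 (28.6%) members sat exactly at the threshold of 2 UMIs. At the upper end, 17 control and 28 *Eed-cKO* members held 10 UMIs or more. The highest member held 83 UMIs in control and 1831 in *Eed-cKO*, and the next *Eed-cKO* members held 290, 89 and 70. The mean was 10.4 UMIs in control and 34.7 in *Eed-cKO*, and 10.8 in *Eed-cKO* without the 3 highest members. Just outside the rule lay 156 control and 206 *Eed-cKO* neurons with 1 *Pomc* UMI, and 6 and 6 cells with at least 2 *Pomc* UMIs but fewer than 3 neuronal genes. Free RNA could supply single UMIs: among endothelial, pericyte, meningeal and microglial cells, which should not make *Pomc*, 2.02% of 248 in control (median 3917.5 UMIs) and 1.73% of 404 in *Eed-cKO* (3636.5 UMIs) held 1 UMI or more. With 2 UMIs or more there were 0 such cells in either genotype, which allows shares of up to 1.21% and 0.743%, while 0.936% and 1.77% of neurons were members. Neurons were deeper, with medians of 5208 and 4811 UMIs. In F0589_E1S4, the library with the most *Cga* or *Tshb* cells, 0 of 14 such cells allows up to 21.4%. There 5.59% of neurons were members, so the limit says little about that library.

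The label was checked with genes that the rule did not use, and neurons with more *Pomc* UMIs more often carried several arcuate factors. In control, *Tbx3* (chr5:119670669-119684724), a T-box factor of the tuberal hypothalamus, was found in 4.78% of neurons with 0 *Pomc* UMIs, 17.6% of members with 2 UMIs and 76.5% of those with 10 or more. In *Eed-cKO*, the same shares were 13.7%, 34.6% and 88.0%. *Isl1* (chr13:116298281-116309689), which is needed for *Pomc* expression, went from 25.5% to 88.2% in control and from 32.4% to 92.0% in *Eed-cKO*. *Prdm12* (chr2:31640037-31655795) went from 3.62% to 52.9% and from 1.28% to 40.0%. *Nhlh2* of the same list went from 23.2% to 52.9% in control, but only from 25.5% to 32.0% in *Eed-cKO*. Depth differed as well, and deeper cells show more genes. Median UMIs at 0 and at 10 or more *Pomc* UMIs were 5176 and 5717 in control and 4732.5 and 7571 in *Eed-cKO*. In *Tbx3*, *Isl1* and *Prdm12*, members with 2 UMIs resembled other neurons more than members with 10 or more did. At least 1 of *Isl1*, *Tbx3* and *Nkx2-1* was present in 78.2% of control and 82.4% of *Eed-cKO* members, against 46.8% and 58.5% of other neurons. The third marker of the label did not follow *Pomc* in control: *Cartpt*, which encodes the peptide CART of adult *Pomc* neurons, was found in 5.88% of control members with 10 or more *Pomc* UMIs and in 4.71% of neurons with 0.

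**Figure D1:**
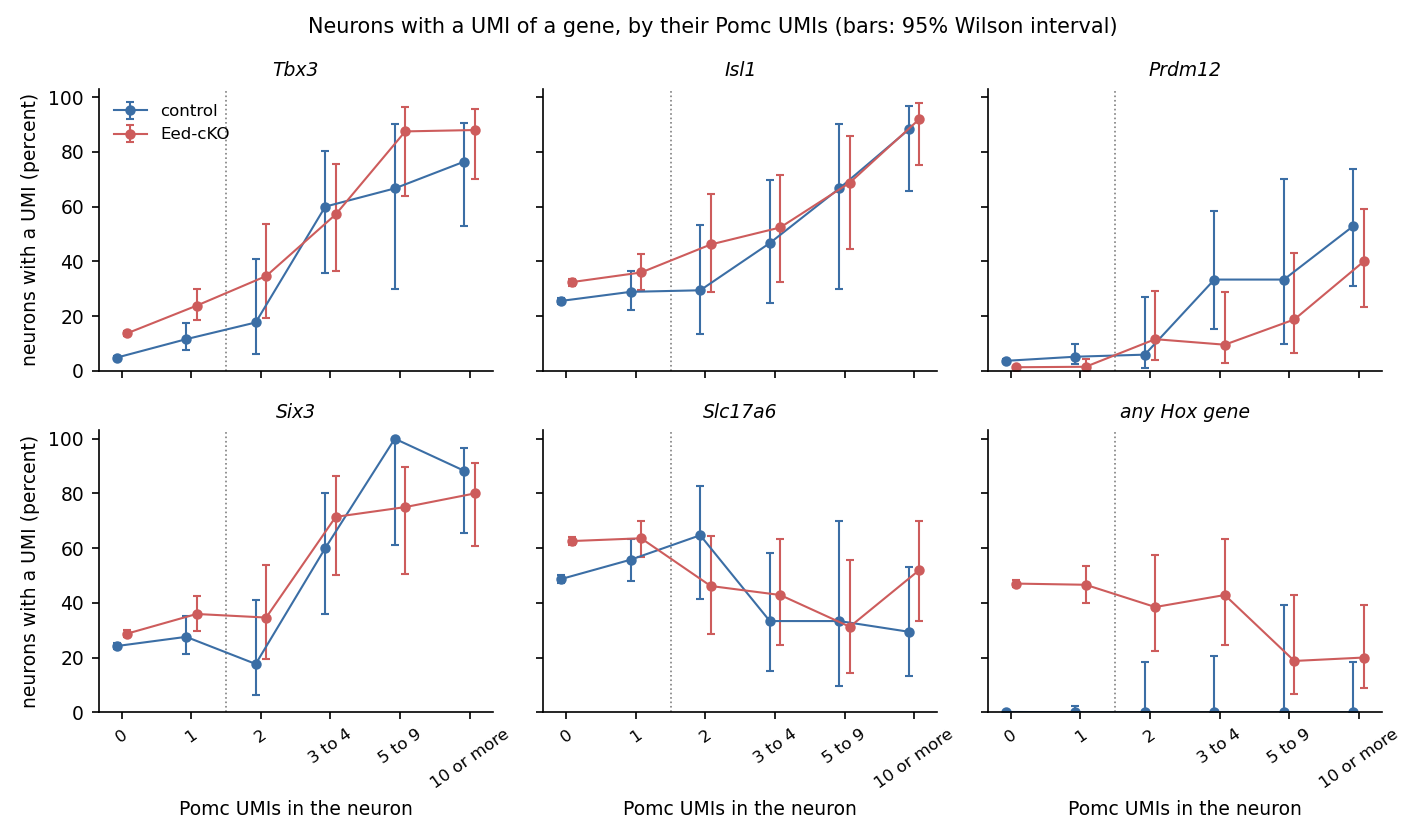
Percent of neurons with at least 1 UMI of *Tbx3*, *Isl1*, *Prdm12*, *Six3*, *Slc17a6* or any Hox gene, by the number of *Pomc* UMIs in the neuron, for control and *Eed-cKO* (cells pooled over embryos; bars, 95% Wilson intervals, which cover counting error only). The 3 *Eed-cKO* members with the most *Pomc*, which carried a pituitary factor and 0 UMIs of *Isl1*, *Tbx3* and *Nkx2-1*, are left out. The dotted line marks the threshold of 2 UMIs. *Tbx3*, *Isl1* and *Prdm12* are more frequent to its right in both genotypes. *Six3* is so from 3 UMIs on, but was in 17.6% of control neurons with 2 UMIs against 24.2% with 0. Hox genes, near 0 in control, go from 47.0% of *Eed-cKO* neurons with 0 *Pomc* UMIs to 18.8% of those with 5 to 9.

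The markers went against the label in part for the 3 *Eed-cKO* members with the most *Pomc*. Each carried at least 1 UMI of a pituitary factor (*Tbx19*, *Pitx1*, *Lhx3* or *Pax7*) and 0 UMIs of *Isl1*, *Tbx3* and *Nkx2-1*. The first, in library F0652_E8S3, gave 13.8% of its 13262 UMIs to *Pomc* and held 5 UMIs of *Tbx19*, 2 of *Lhx3* and 1 of *Pitx1*, beside 37 of the convertase gene *Pcsk2* and 36 of the granule gene *Chga*. The second, in F0571_E3S1, gave 5.50% of 5274 UMIs to *Pomc* and held 1 UMI each of *Lhx3* and *Pax7*. The third, in F0589_E1S4, gave 2.42% of 3680 UMIs and held 5 UMIs of *Tbx19* and 1 of *Pitx1*. 2 other factors of the lineage list were not absent, since the first cell held 13 UMIs of *Six3* and 6 of *Six6* and the second 4 of *Six6*, while the third held 0 of both. These cells are called members with pituitary factors below. By contrast, the control member with 83 *Pomc* UMIs held 10 UMIs of *Tbx3* and 5 of *Isl1*, and the *Eed-cKO* member with 70 held 2 and 3. Counting any UMI of the 4 factors, 10 *Eed-cKO* and 0 control members carried one, as did 3.90% and 0.706% of other neurons.

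The embryo sums were split to see whether the higher *Pomc* level of *Eed-cKO* lay in members or in cells with *Cga* or *Tshb*. It lay mostly in members, in large part in the 3 members with pituitary factors. This split cannot separate neurons from pituitary cells. Most cells with *Cga* or *Tshb*, 77 of 93 mutant and 19 of 20 control cells, also carried at least 3 neuronal genes. A corticotrope or melanotrope that did so, with 0 UMIs of *Cga* and *Tshb*, would count as a member. Over all cells, *Pomc* measured 10.5, 36.5, 10.5, 12.7, 31.5 and 15.4 CPM in the 6 control embryos (mean 19.5 ± 11.5 SD). In the 9 *Eed-cKO* embryos the lowest was 8.93, the median 46.2 and the highest 453 CPM (mean 99.0 ± 137), and 6 of 9 lay above the highest control. Of the difference of 79.5 CPM between the means, 91.9% lay in members, 5.14% in cells with a UMI of *Cga* or *Tshb* and 2.47% in neurons with 1 *Pomc* UMI. The members' own contribution overlapped between genotypes, at 14.1 ± 11.2 CPM in control and 87.2 ± 137 in *Eed-cKO*, with 3 of 9 *Eed-cKO* embryos above the highest control. In such sums, more cells and more RNA per cell cannot be told apart.

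Most of the excess came from a few cells. Members held 574 of 783 *Pomc* UMIs in control (73.3%) and 3159 of 3661 in *Eed-cKO* (86.3%), and the 3 members with pituitary factors held 2210 of them, 60.4% of all *Pomc* UMIs of the mutants. Without these 3 cells, the *Eed-cKO* level was 44.5 ± 23.0 CPM and the difference 25.0 CPM, of which 74.1% lay in members and 16.3% in *Cga* or *Tshb* cells. Without the single cell of 1831 UMIs, the shares were 80.9% and 12.0%, and without its whole embryo F0652_E8 they were 81.8% and 13.0%.

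Cells with *Cga* or *Tshb* numbered 20 in control and 93 in *Eed-cKO*, and they held 2 and 228 *Pomc* UMIs, 0.255% and 6.23% of the total. Nearly all of the latter came from 1 library: F0589_E1S4 held 51 of the 93 cells and 214 of the 228 UMIs. In its embryo, F0589_E1, these cells made up 34.0 CPM of *Pomc*, 48.0% of the embryo's total, beside 30.5 CPM in members. Without that embryo, 0.432% of the *Pomc* difference lay in *Cga* or *Tshb* cells. Cells strong for the hormone genes held little *Pomc*, since the 26 cells with at least 5 UMIs of *Cga* and *Tshb* together held 12 *Pomc* UMIs.

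**Figure D2:**
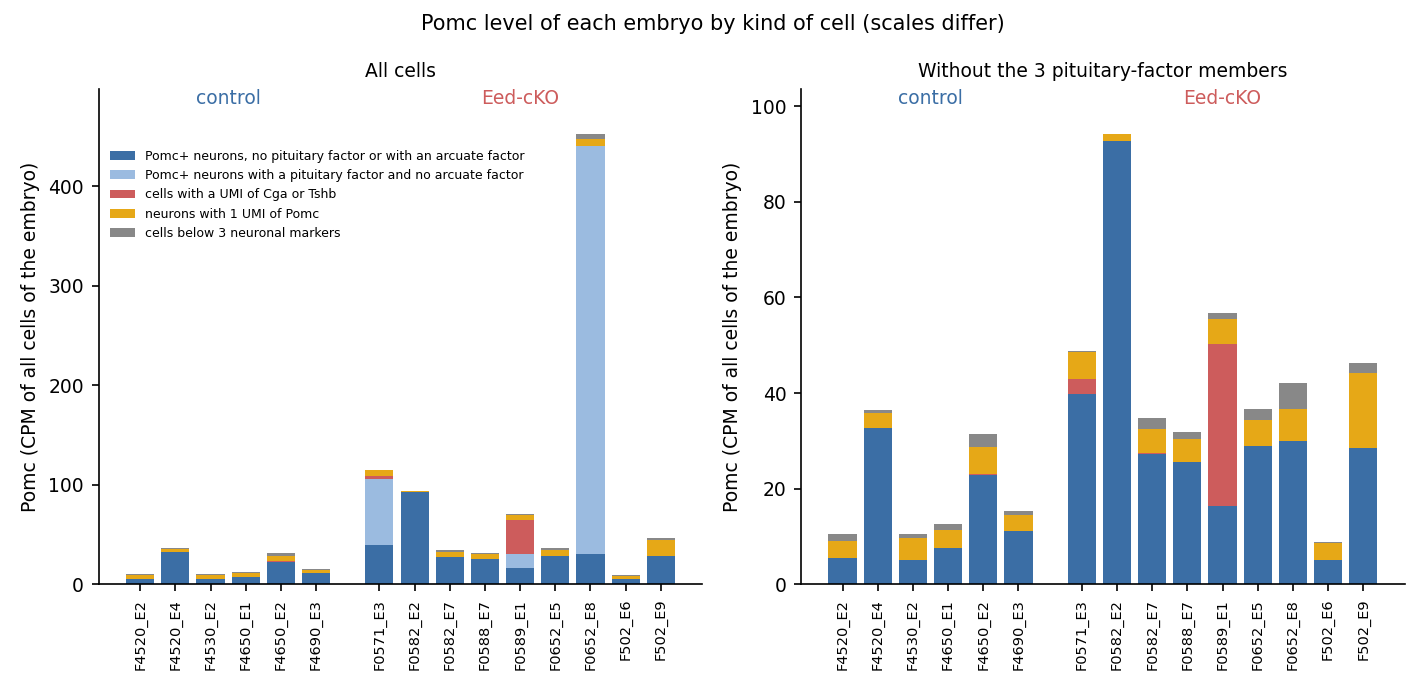
*Pomc* level (CPM of all cells of the embryo) of each embryo, stacked by the kind of cell that held the UMIs; the 2 panels have different scales. Members with pituitary factors make up most of F0652_E8 (453 CPM in total) and of F0571_E3, *Cga* or *Tshb* cells are visible mainly in F0589_E1, and the remaining *Eed-cKO* embryos lie between 8.93 and 94.2 CPM, with control between 10.5 and 36.5 CPM.

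The share of neurons that met the rule was larger on average in *Eed-cKO*. In the 6 control embryos the share ranged from 0.506% to 1.5% with a median of 0.8998% (mean 0.911% ± 0.382 SD). In the 9 *Eed-cKO* embryos it ranged from 0.773% to 4.15% with a median of 1.58% (mean 1.83% ± 0.962), and 5 of 9 lay above the highest control. The difference of 0.922 percentage points has no test, since the *Pomc* UMIs that it counts chose the members and the rule was set with the higher *Pomc* level known.

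Part of the difference in share moved with cells that carried non-neural markers. Of 30 markers of astrocytes, ependymal cells, oligodendrocyte lineage, endothelium, pericytes, meninges, microglia and choroid plexus, at least 2 were detected in 0 of 55 control members (95% Wilson interval up to 6.53%) and in 23 of 91 *Eed-cKO* members (25.3%). Of these 23 cells, 11 were in F502_E9S4 and 7 in F0589_E1S4. Among other neurons, 4.09% and 7.98% carried 2 such markers. Leaving these cells out of members and neurons, together with the 3 members with pituitary factors, the shares were 0.949% ± 0.392 (n = 6) and 1.39% ± 0.491 (n = 9), a difference of 0.437 points. Without the 2 libraries, the difference was 0.460 points. The part of the non-neural markers in the share was not tested.

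The marker lists differed between the genotypes as follows. In the summed members, the 4 endothelial, 3 pericyte, 4 meningeal, 3 ependymal and 4 microglial markers were all at 0 in every control embryo. In *Eed-cKO* embryos the endothelial list summed to between 0 and 941 CPM, the pericyte list to between 0 and 221 and the meningeal list to between 0 and 330, each with a median of 0. The astrocyte list ranged from 0 to 19.6 CPM in control and from 0 to 332 in *Eed-cKO*. Of the 9 pituitary markers in the table, *Cga* and *Tshb* included, *Pitx1*, *Lhx3*, *Tbx19*, *Pax7* and *Lhb* were at 0 in control members. Their sum was 0 to 55.0 CPM (median 28.4) in control and 0 to 296 (median 96.8) in *Eed-cKO*.

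**Figure D3:**
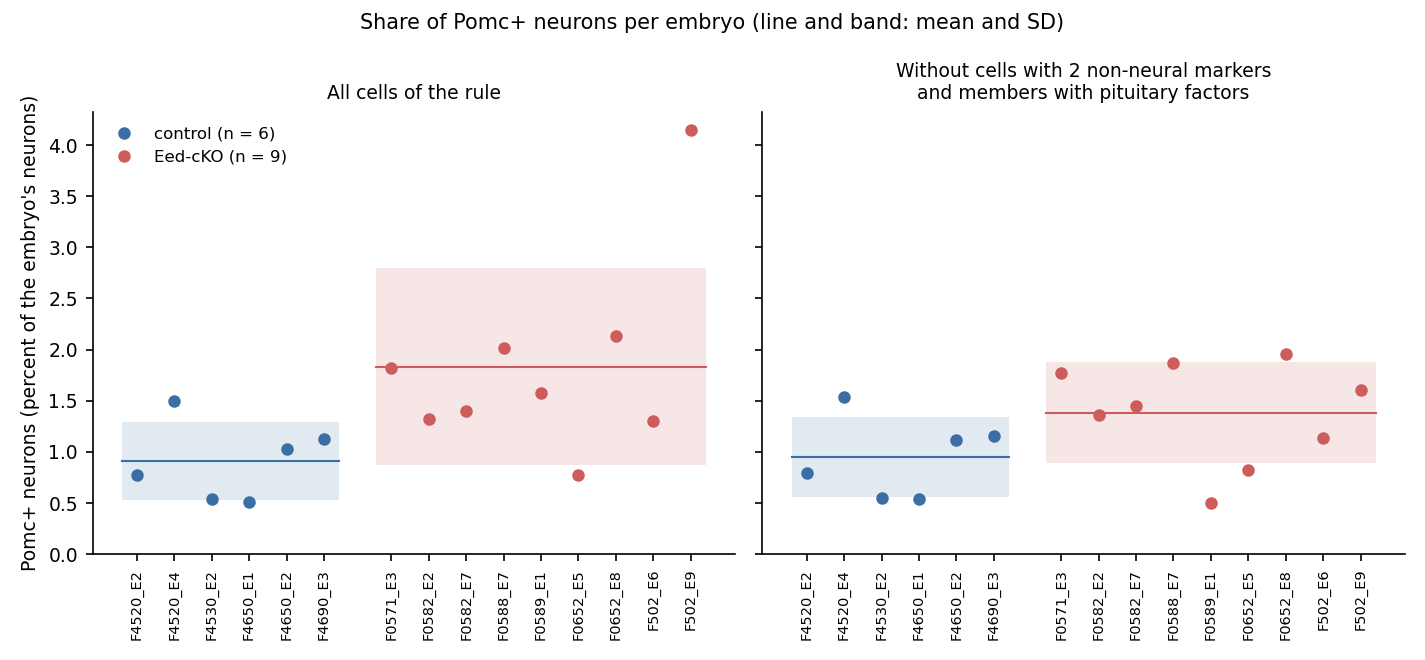
*Pomc*+ neurons as a percent of the neurons of each embryo, control (n = 6) and *Eed-cKO* (n = 9), for all members and without cells that carry 2 non-neural markers or pituitary factors; line and band are the mean and SD. With all members, 5 of 9 *Eed-cKO* embryos lie above the highest control and F502_E9 stands at 4.15%. With those cells left out, 4 of 9 do and the highest is 1.96%.

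In control, *Pomc*+ neurons were compared with other neurons of the same embryos, beginning with arcuate transcription factors. 3 of the 13 tested lineage factors, *Tbx3*, *Prdm12* and *Six6*, were higher and 0 were lower. The test was edgeR's quasi-likelihood test on UMI sums of 5 embryos with at least 5 members, with the embryo as a block and Benjamini-Hochberg adjustment over 14241 genes. Of all genes tested, 34 (0.239%) were higher and 94 (0.66%) were lower. The median log2 difference of all genes was −0.26, and the scaling moved it, to −0.10 when only library size was used, with 55 genes higher and 56 lower. Fold changes are best read against that median.

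*Tbx3* measured 18.3, 419.5, 591.2, 254.3 and 159.3 CPM in the members of the 5 control embryos. In their other neurons it lay between 9.16 and 29.2 CPM, so that members were higher in 4 of 5 embryos (log2 difference 3.65, SE 0.35, adjusted p = 1.57e-21). *Prdm12*, which is required for *Pomc* to be switched on, measured 36.7, 111.9, 168.9, 156.5 and 21.2 CPM in members. All 5 values lay above the range of other neurons, 7.43 to 19.3 CPM (log2 2.30, SE 0.47, adjusted p = 0.000525). *Six6* (chr12:72939892-72944899), an eye and hypothalamus homeobox gene, was 160 ± 67.8 CPM in members and 35.2 ± 6.24 in other neurons (n = 5), again with no overlap (log2 1.87, adjusted p = 4.28e-05). *Isl1* was 322.5 ± 212 against 153 ± 27.9 CPM and higher in 4 of 5 embryos, but it did not pass (log2 0.64, SE 0.23, adjusted p = 0.249). *Nkx2-1*, a factor of the whole ventral hypothalamus, measured 163.5 ± 48.5 and 135 ± 20.4 CPM (log2 0.07, adjusted p = 0.947).

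Of 11 genes of prohormone processing and secretion, 1 was higher. *Scg2*, which encodes secretogranin II of dense core granules, measured 330, 1771, 2238, 1076 and 1285 CPM in members and 530 to 617 in other neurons (log2 0.90, SE 0.16, adjusted p = 1.55e-05). Members were higher in 4 of 5 embryos, and the embryo that was not, F4520_E2, was also the one with the lowest *Tbx3*. *Pcsk1*, the convertase that makes the first cuts in the precursor, held 11 UMIs in all members (32.1 ± 34.9 against 10.4 ± 2.11 CPM; adjusted p = 0.432). *Pcsk2*, which makes the later cuts, did not pass either (91.8 ± 43.5 against 101 ± 12.2 CPM; adjusted p = 0.796).

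Among 17 tested receptors and signalling genes of energy balance, *Irs4* alone was higher in control. This insulin receptor substrate of the hypothalamus measured 201 ± 86.4 CPM in members and 81.2 ± 9.74 in other neurons (log2 1.09, SE 0.27, adjusted p = 0.0138), but turned to −0.53 with thinned cells and −0.17 for members with at least 5 *Pomc* UMIs. The leptin receptor gene *Lepr* had 0 UMIs in control members, as had the melanocortin receptor genes *Mc3r* and *Mc4r* in the members of both genotypes. A count of 0 (3 counts of all UMIs of the members) allows up to 9.07 CPM in control and 4.91 CPM in *Eed-cKO* members. The mean levels of these genes in other neurons lay below those limits, so a difference was not detectable at this depth.

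Beside the fixed lists, genes were chosen across all genes by the size of the difference among those past the threshold whose members and other neurons did not overlap. In control the higher ones were *Prdm12*, *Fam184b*, *Rbm11*, *Six6*, *Cpne4*, *Nin*, *Asb4* and *Kcnj3*, of which *Prdm12* and *Six6* are also in the lineage list. *Asb4* (chr6:5383386-5433022), an ankyrin and SOCS box protein gene of the arcuate nucleus, measured 611 ± 274 CPM in members and 184 ± 31.3 in other neurons (log2 1.47, SE 0.19, adjusted p = 2.44e-11). *Kcnj3*, which encodes a G protein-gated potassium channel, had a log2 difference of 1.43 (adjusted p = 0.0393). *Dlk1*, an imprinted Notch ligand gene chosen here after its values were seen, measured 593 ± 297 against 221 ± 34.9 CPM (log2 1.16, adjusted p = 7.42e-07).

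Several other hypothalamic peptides were at lower summed levels in control *Pomc*+ neurons. Of 24 peptide genes tested, 10 were lower and 0 were higher, with a median log2 difference of −2.11. *Avp* was at 0, 9.32, 42.2, 0 and 10.6 CPM in members and between 184 and 1327 CPM in other neurons (log2 −6.50, SE 0.42, adjusted p = 3.25e-50). As cells, 5.45% of control members and 5.49% of other neurons held *Avp*, so its lower sum came with a similar share of positive cells. *Sst* measured 14.5 ± 23.2 against 185 ± 61.5 CPM (log2 −3.59) and *Npy* 3.91 ± 8.75 against 116 ± 54.1 CPM (log2 −5.30). The shares of positive cells were lower for these, at 3.64% against 7.85% for *Sst* and 1.82% against 4.52% for *Npy*. *Pmch*, *Oxt*, *Hcrt* and *Agrp* had 0 UMIs in members, with 95.9, 73.6, 29.1 and 27.2 CPM in other neurons. Only 1.71%, 1.15%, 0.917% and 1.31% of other neurons held them, so 0 of 55 members cannot show a lower share of positive cells. *Nts*, *Gal* and *Cck* were lower as well. *Cartpt* was detected in 2 of the 5 control embryos and did not pass (24.1 ± 35.4 against 26.1 ± 7.70 CPM; log2 −0.95, adjusted p = 0.821).

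Of 11 transmitter genes tested in control, 2 were lower in members than in other neurons and 0 were higher. *Slc17a6*, which encodes the vesicular glutamate transporter VGLUT2, measured 238, 205, 84.5, 137 and 350.5 CPM in members and 378 ± 29.4 in other neurons, and was lower in 5 of 5 embryos (log2 −0.92, SE 0.22, adjusted p = 0.00519). *Gad1*, an enzyme of GABA synthesis, measured 241 ± 154 against 357 ± 45.5 CPM (log2 −0.92, adjusted p = 0.00689), yet was higher in 2 of 5 embryos. *Slc32a1*, the vesicular GABA transporter gene, did not pass (64.6 ± 62.6 against 106 ± 19.3 CPM; adjusted p = 0.152). *Slc17a6* and *Gad1* kept their direction but did not pass with DESeq2. *Cdkn1c*, a cell cycle inhibitor gene, was lower in members, at 25.3 ± 16.6 against 118 ± 25.4 CPM (log2 −2.10, adjusted p = 0.000333).

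In *Eed-cKO*, arcuate factors were higher in *Pomc*+ neurons too. Over 14550 genes and 8 embryos, 229 genes (1.57%) were higher and 795 (5.46%) lower in members than in other neurons, with a median of −0.27 on the log2 scale. With library size alone the calls were 351 higher and 267 lower (median −0.04), so the split between directions rests on the scaling. Of the 13 lineage factors, 4 were higher, *Tbx3*, *Prdm12*, *Six6* and *Isl1*, and 0 were lower. *Tbx3* ranged from 127 to 465 CPM in members (median 212.5) with 43.7 ± 11.2 CPM in other neurons, higher in 8 of 8 embryos (log2 2.21, SE 0.22, adjusted p = 1.31e-20). *Prdm12* was at 0 in 3 embryos and reached 246 CPM in members, with 3.41 ± 2.09 CPM in other neurons (log2 3.72, SE 0.55, adjusted p = 6.03e-09). *Isl1* measured 295 ± 141 against 156 ± 25.7 CPM and was higher in 7 of 8 embryos (log2 0.53, SE 0.18, adjusted p = 0.0464), but turned to −0.19 with cells thinned to 2000 UMIs.

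Without cells that carried 2 non-neural markers or pituitary factors, 387 genes were called in *Eed-cKO* in place of 1024, 88 of them higher, over 6 embryos. In that set, the log2 difference was 4.78 for *Prdm12* and 0.84 for *Isl1* (adjusted p = 0.00185). *Six3*, a partner of *Six6* in forebrain patterning, was then higher as well (log2 1.01, adjusted p = 9.91e-05). With all members it had not passed (log2 0.53, adjusted p = 0.0582).

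**Figure D4:**
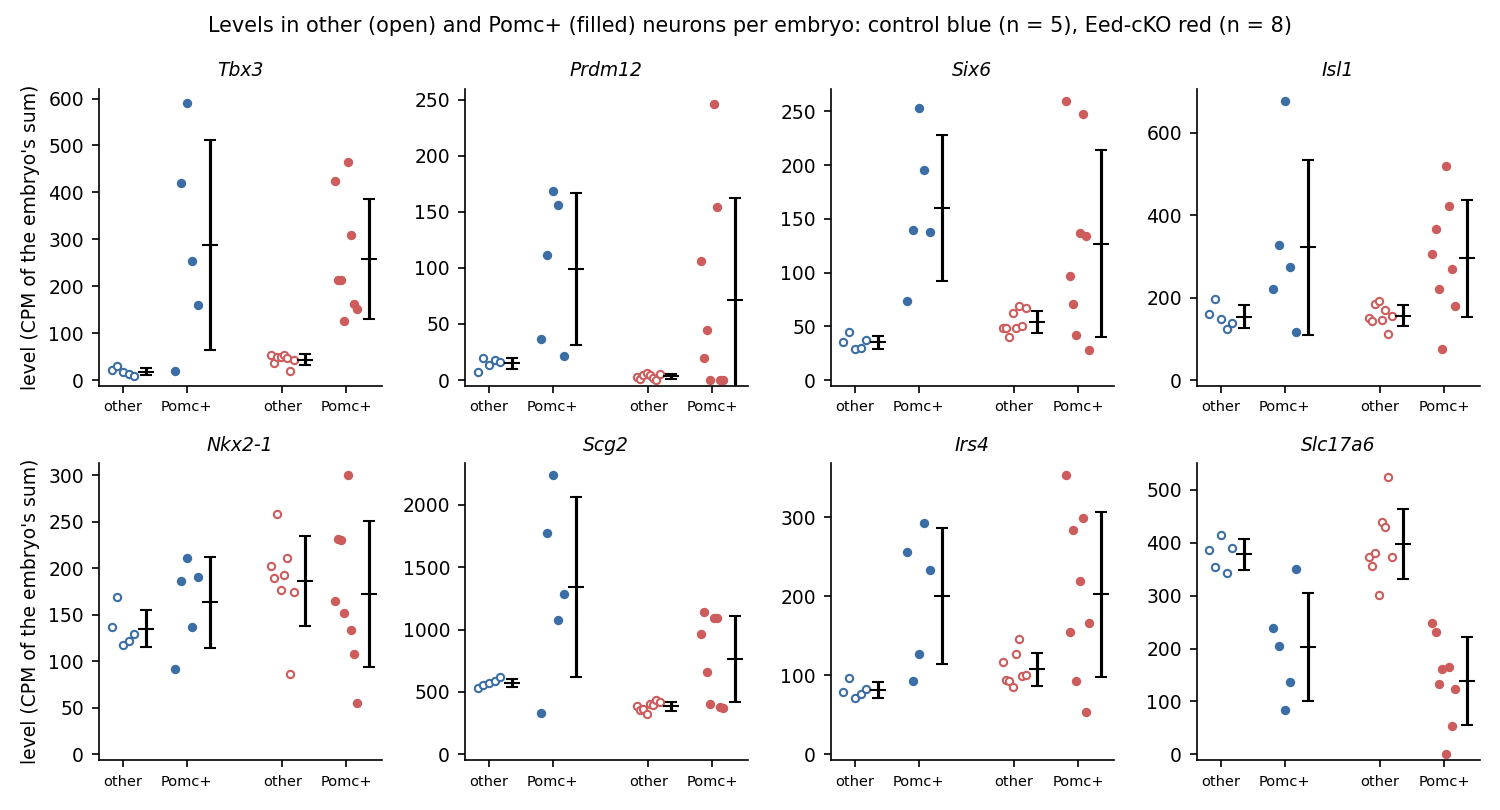
Levels (CPM of the embryo's sum) of 8 genes in other neurons (open) and *Pomc*+ neurons (filled) of each embryo, control (blue, n = 5) and *Eed-cKO* (red, n = 8); bars are the mean and SD, and the vertical scales differ. *Tbx3*, *Prdm12*, *Six6* and *Scg2* are mostly higher and *Slc17a6* lower in *Pomc*+ neurons of both genotypes, while the *Nkx2-1* values overlap.

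Of the 11 processing and secretion genes, 4 were higher and 1 was lower in *Eed-cKO* members. *Scg2* (764 ± 346 against 386 ± 36.2 CPM; log2 0.67), *Chgb* (log2 0.52) and *Pcsk1n* were higher, as was *Prcp* (log2 1.65), whose product inactivates α-MSH. *Prcp* turned direction with cells thinned to 2000 UMIs (log2 −4.77, 6 embryos) and for members with at least 5 *Pomc* UMIs (log2 −0.0614). *Pcsk1n*, the gene of the convertase inhibitor proSAAS, measured 1734 ± 409 against 1007 ± 157 CPM and was higher in 8 of 8 embryos (log2 0.52, SE 0.12, adjusted p = 0.000439). *Cpe*, the carboxypeptidase that trims peptides after cleavage, was lower, at 1027 ± 131 against 1295 ± 75.9 CPM (log2 −0.57, adjusted p = 0.000165), a call lost with library size alone.

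Receptor genes for estrogen and prolactin were among the genes higher in *Eed-cKO* members. *Esr1*, the estrogen receptor α gene, ranged from 19.3 to 82.5 CPM in members (median 27.1) and from 3.80 to 7.75 in other neurons, with no overlap (log2 2.47, SE 0.53, adjusted p = 0.000186). Of 19 tested, *Prlr* (log2 1.49, adjusted p = 0.0239) and *Irs4* (log2 0.69, adjusted p = 0.0148) were also among the higher genes, and *Cnr1* and *Ntrk2* were lower. In control, *Prlr* (log2 1.57, adjusted p = 0.0923) and *Esr1* (log2 1.34, adjusted p = 0.72) did not pass. Whether these differences themselves differed between genotypes was tested with all genes below, and 0 of the 19 receptor genes passed.

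By the rule of size, the other genes named in *Eed-cKO* were *AW549542*, *Fam183b*, *Rhoc*, *Rnf128*, *Parvb* and *Gpx3*. *AW549542* measured 130 ± 78.3 CPM in members and 11.0 ± 3.93 in other neurons (log2 3.15, SE 0.35, adjusted p = 1.87e-16). *Gpx3*, a secreted glutathione peroxidase gene, measured 165 ± 63.0 against 47.9 ± 7.82 CPM (log2 1.49). Between the genotypes, whose fits share no sample, 17 genes were called higher in both, 51.5% of the 33 higher in control and 7.87% of the 216 higher in *Eed-cKO* among 14004 genes tested in both. Of the lower genes, 69 were shared, 73.4% of 94 and 8.82% of 782.

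Of 24 peptide genes, 9 were lower and 0 higher in the sums of *Eed-cKO* members. Of 11 transmitter genes, 4 were lower and 0 higher, with a list median of −0.18 against −0.27 for all genes. *Sst* measured 64.9 ± 80.2 against 292 ± 88.5 CPM (log2 −2.38, adjusted p = 3.8e-22), *Avp* 15.4 ± 33.5 against 194 ± 134 CPM (log2 −3.92), and *Agrp* and *Pmch* had 0 UMIs in members. As cells, members more often held *Avp* (9.89% against 2.45%), *Npy* (15.4% against 7.22%) and *Sst* (18.7% against 12.1%). *Gal* (14.3% against 14.1%) and *Cck* (17.6% against 17.3%) were about as frequent. *Adcyap1* (5.49% against 10.8%) and *Penk* (7.69% against 8.16%) were less so. *Agrp* and *Pmch* were in 0.722% and 0.454% of other neurons, too few for 0 members to show a lower share. *Slc17a6* was at 0 to 247 CPM in members (median 147) and 302 to 524 in other neurons, lower in 8 of 8 embryos (log2 −1.59, SE 0.18, adjusted p = 7.66e-16). *Gad1*, *Gad2* and *Slc32a1* were lower, with log2 differences of −0.77, −1.15 and −0.89.

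Hox genes, which pattern the hindbrain and spinal cord and are normally silent in the forebrain, were at lower levels in *Pomc*+ neurons than in other neurons of the same *Eed-cKO* embryos. Summed over the Hox genes, members of the 8 embryos measured 94.3, 77.3, 230, 245, 0, 20.6, 242 and 277 CPM. Other neurons of these embryos measured 402, 478, 481, 593, 450, 504, 586 and 609 CPM. The difference was −364 CPM (SD 76.2), with members lower in 8 of 8 embryos and an exact two-sided sign-flip permutation p of 0.00781, the smallest that 8 embryos allow. This test and the permutation tests of Hox in the next paragraph were not among those planned. In control, 0 of 55 members and 0.106% of other neurons held a Hox UMI.

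Counted as cells, 27 of 91 *Eed-cKO* members held a Hox UMI. Per embryo, the share was 27.3% ± 26.7 in members and 48.7% ± 9.41 in other neurons (SD, n = 8), lower in 7 of 8 (exact permutation p = 0.0391), and the exception was F0589_E1 with 72.7% against 57.5%. The difference was as large without cells that carried 2 non-neural markers or pituitary factors, at −425 CPM over 6 embryos (lower in 6 of 6, exact permutation p = 0.0313, the smallest possible), and with cells thinned to 2000 UMIs, at −526 CPM over 6 embryos. Gene by gene, 10 of the 32 Hox genes tested were lower in members and 0 higher, with a median log2 difference of −2.31. *Hoxc10* measured 12.7 ± 20.5 against 73.5 ± 10.3 CPM (log2 −2.90, SE 0.45, adjusted p = 2.29e-08) and *Hoxc13* 12.6 ± 12.4 against 57.8 ± 10.9 CPM (log2 −2.38, adjusted p = 2.17e-05). Of the 10, *Hoxa9*, *Hoxb3* and *Hoxc4* passed in 3 of 18 alternatives, *Hoxd8* in 2 of 17 and *Hoxb13* in 6 of 18, those that leave out single embryos included, while *Hoxc10* passed in 18 of 18. None turned direction in these alternatives. Of other regulators that are ectopic in the mutant, *Tfap2a* (log2 −3.68) and *Vax2* (log2 −1.73) were lower as well.

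**Figure D5:**
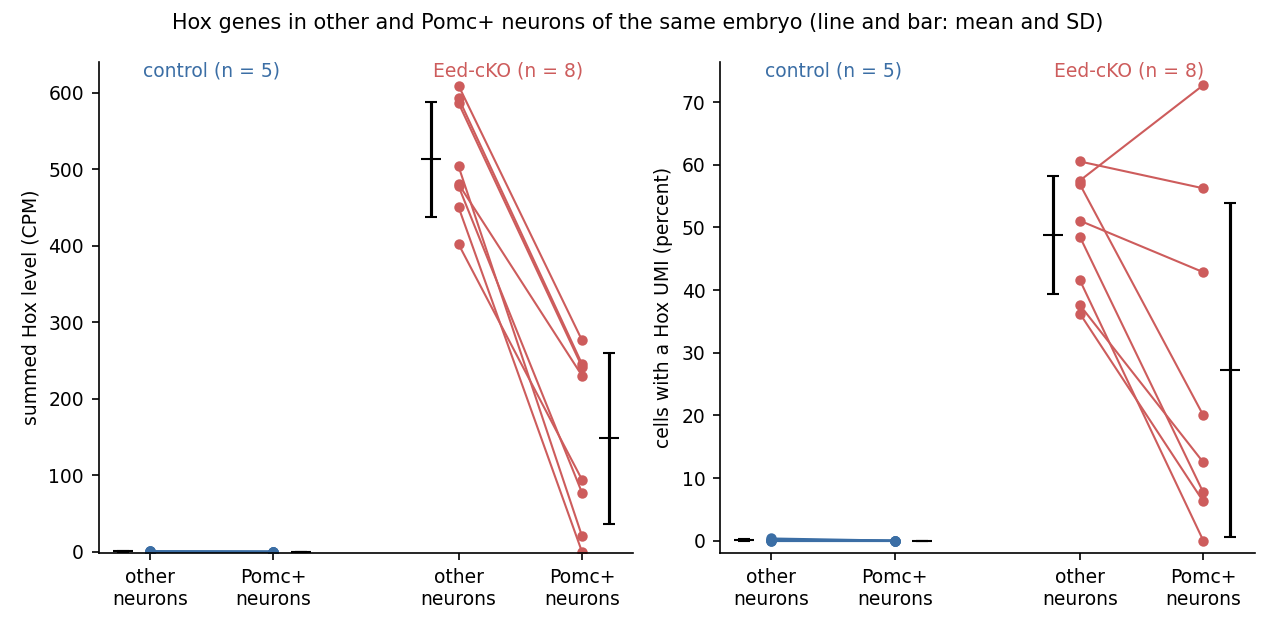
Hox genes in other neurons and *Pomc*+ neurons of the same embryo (joined by lines), control (n = 5) and *Eed-cKO* (n = 8), as summed level (CPM) and as percent of cells with a Hox UMI; line and bar are the mean and SD. In *Eed-cKO*, the level is lower in *Pomc*+ neurons of 8 of 8 embryos and the percent in 7 of 8, and control values lie near 0.

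Within *Pomc*+ neurons, *Eed-cKO* differed from control in few of the genes with enough UMIs to test. The arcuate identity genes were not among those that differed. Of 8694 genes tested over 5 control and 8 *Eed-cKO* embryos, 30 (0.345%) were higher and 8 (0.092%) lower in *Eed-cKO*, and 844 had an unadjusted p under 0.05. All 8 tested lineage factors missed the threshold. *Tbx3* measured 258 ± 128 CPM in *Eed-cKO* and 288.5 ± 223 in control (log2 −0.03, SE 0.34), *Isl1* 295 ± 141 and 322.5 ± 212 (log2 0.04, SE 0.31), *Six6* 127 ± 87.2 and 160 ± 67.8 (log2 −0.18, SE 0.39) and *Prdm12* 71.3 ± 90.6 and 99.0 ± 67.6 (log2 −0.36, SE 0.58). These errors leave room for changes in either direction. In simulated data of the same design, 15.7% of genes with a log2 change of 1 and 68.3% of those with a log2 change of 2 were recovered.

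Among the fixed lists, 1 gene passed. *Cdkn1c* (chr7:143458339-143461050), which encodes the cell cycle inhibitor p57, measured 36.7, 28.0, 0, 19.6 and 42.5 CPM in control members. In *Eed-cKO* members it lay between 0 and 257 CPM with a median of 166 (log2 difference 2.40, SE 0.52, adjusted p = 0.021). Of the 11 processing and secretion genes 0 passed, *Scg2* (764 ± 346 against 1340 ± 722 CPM; log2 −0.72, adjusted p = 0.238) and *Pcsk2* (161 ± 134 against 91.8 ± 43.5 CPM; log2 1.07, adjusted p = 0.347) included. Of 13 peptides 0 passed: *Cartpt* was 70.0 ± 59.7 CPM in *Eed-cKO* and 24.1 ± 35.4 in control (log2 2.17, adjusted p = 0.182), *Npy* 40.8 ± 55.6 and 3.91 ± 8.75 (log2 3.44, adjusted p = 0.131) and *Nts* 73.7 ± 124 and 15.4 ± 25.5 (log2 2.79, adjusted p = 0.178). Median differences were −0.06 for processing genes, −0.21 for lineage factors and 0.48 for peptides, against 0.06 for all genes. The 12 receptor, 7 transmitter and 8 PRC2 genes tested held 0 calls. Only 1 of 34 Hox genes (log2 3.90) and 1 of 6 ectopic regulators (log2 5.74) had enough UMIs to be tested, and neither passed. Changes of most Hox genes within *Pomc*+ neurons could therefore not be judged gene by gene.

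Of the 38 called genes, 7 had embryos that did not overlap between genotypes. The share of all tested genes without overlap is not given, so this count only chose which genes to name. *Mest*, an imprinted gene, ranged from 0 to 42.2 CPM in control and from 58.0 to 279 in *Eed-cKO* (log2 3.39, SE 0.58, adjusted p = 0.00356). *Arl6ip1*, a gene of endoplasmic reticulum shape, ranged from 464.5 to 597 CPM in control and from 77.3 to 320 in *Eed-cKO* (log2 −1.32, SE 0.25, adjusted p = 0.00902). *Cadm1*, which encodes a synaptic adhesion molecule, ranged from 880 to 1604 CPM and from 328 to 837 CPM (log2 −0.97, SE 0.21, adjusted p = 0.0222). *Hddc3*, *Anks3* and *Ftl1*, all higher in *Eed-cKO*, were also among them. *Ebf3* (chr7:137193673-137314445), a neuronal differentiation factor, was lower, at 25.0 ± 25.5 against 161 ± 202 CPM (log2 −2.68, SE 0.55, adjusted p = 0.0142), and its control values ranged from 0 to 447 CPM with a median of 58.7.

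Many of the higher genes moved with the cells that carried non-neural markers. Those 23 members held 28.6% of the UMIs of all *Eed-cKO* members, and 16 of the 30 higher genes had over 50% of their *Eed-cKO* UMIs in them. For the 8 with 0 UMIs in control members (*Pltp*, *Klf2*, *Apod*, *Fn1*, *Mt1*, *Sepp1*, *Apoe* and *Igf2*), it was 87.1% to 98.0%. Without these cells and the members with pituitary factors, 11 genes were called, 5 higher and 6 lower, over 5 and 6 embryos. *Nr4a1* (log2 2.82) and *Fosb* (log2 2.73), which are activity-dependent early genes, were higher and *Ebf3*, *Sema3c*, *Pcdh17*, *Arl6ip1* and *Cadm1* lower in that set, as with all members. *Mest* (log2 2.09, adjusted p = 0.525) and *Cdkn1c* (log2 2.10, adjusted p = 0.0615) did not pass.

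The count of genes called within *Pomc*+ neurons was not stable. It went from 2 without control embryo F4690_E3 to 70 without *Eed-cKO* embryo F0652_E8, and limma-voom with TREAT called 0 genes (636 at an unadjusted p under 0.05) where DESeq2 called 49.

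The change between genotypes differed between *Pomc*+ and other neurons for 24 genes (0.156%) in the higher and 3 (0.0195%) in the lower direction, of 15368 tested for the interaction of genotype and cell kind (23 and 9 with library size alone). *Ebf3* was at 161 CPM in control and 25.0 in *Eed-cKO* members, and at 135 and 144 in other neurons (interaction log2 −2.60, SE 0.43, adjusted p = 2.44e-05). *Crabp1*, a retinoic acid binding protein gene, was at 37.9 and 29.1 CPM in members, and at 9.21 and 104 in other neurons (log2 −3.92, SE 0.67, adjusted p = 3.45e-05). *Nts* was at 15.4 and 73.7 CPM in members and 94.4 and 75.9 in other neurons (log2 3.27, SE 0.65, adjusted p = 0.00128), and *Npy* at 3.91 and 40.8 in members and 116 and 83.3 in other neurons (log2 4.51, adjusted p = 0.00544). *Cdkn1c* was at 25.3 and 140 CPM in members and at 118 and 163 in other neurons (log2 1.91, adjusted p = 0.0456), a call lost in 16 of 19 alternatives.

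Without cells that carried 2 non-neural markers or pituitary factors, 6 interactions were called, 3 in each direction. *Ebf3* was among them (log2 −2.75, adjusted p = 0.000137), and *Prdm12* passed in that set alone (log2 2.64, adjusted p = 0.0137, against log2 1.65 and adjusted p = 0.567 with all members). With cells thinned to 2000 UMIs, which left 2 control embryos, 0 interactions were called (363 at an unadjusted p under 0.05), and the *Ebf3* and *Crabp1* differences turned direction.

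As shares of cells, 12 positive classes were compared between genotypes over 5 control and 8 *Eed-cKO* embryos by an exact two-sided permutation test (1287 splits), and 0 passed after Benjamini-Hochberg adjustment. Unadjusted, 2 had p under 0.05. Members with any Hox UMI made up 0% in control and 27.3% ± 26.7 in *Eed-cKO* (p = 0.00932, adjusted 0.112), above 0 in 7 of 8 embryos. Members with *Cartpt* made up 6.86% ± 9.60 and 24.6% ± 15.2 (p = 0.0466, adjusted 0.28), with 5 of 8 *Eed-cKO* embryos above the highest control. Among other neurons, 4.71% and 11.9% held *Cartpt*.

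The transmitter classes of *Pomc*+ neurons overlapped between genotypes. Cells with *Slc17a6* and without *Slc32a1* made up 39.0% ± 15.1 in control and 23.1% ± 15.6 in *Eed-cKO* (p = 0.0979, adjusted 0.331, exact permutation test). Cells with both transporters made up 7.14% ± 10.1 and 16.2% ± 11.2 (p = 0.174, adjusted 0.331), and cells with neither 44.3% ± 18.46 and 49.7% ± 15.7 (p = 0.583, adjusted 0.699). Cells with *Slc32a1* alone made up 9.52% ± 9.06 and 11.0% ± 11.8. 1 of 55 control and 14 of 91 *Eed-cKO* members held *Npy* (p = 0.196, adjusted 0.331), and 2 and 17 held *Sst* (p = 0.172, adjusted 0.331). Members with *Isl1* made up 54.0% ± 7.45 and 63.2% ± 14.1 (adjusted 0.331), and members with *Tbx3* 50.9% ± 23.8 and 62.1% ± 21.5 (adjusted 0.557). Without the 2 libraries that were set apart (5 control and 6 *Eed-cKO* embryos), *Eed-cKO* shares were 14.9% for any Hox UMI (10 of 65 members), 19.0% for *Cartpt* (13 of 65) and 11.4% for both transporters. In the same set, 6 and 4 of 65 *Eed-cKO* members held *Npy* and *Sst*. 0 of the 12 classes passed there either, the smallest adjusted p being 0.286. *Agrp*, the peptide of the opposing arcuate neurons, was found in 0 members of either genotype. It was in only 1.31% of control and 0.722% of *Eed-cKO* other neurons, so these counts of 0 cannot show a lower share.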

How the data were processed

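The authors deposited raw UMI counts, 1 table of genes by cells, produced by the SureCell pipeline (STAR, mm10) without normalization and after removal of low-quality cells. It holds 16510 genes in 14121 cells of 48 libraries. Members and gene lists were chosen with earlier results of these data known, so the lists give no independent support. Lists comprised genes of *Pomc* processing, arcuate lineage, peptides, receptors, transmitters, Hox, ectopic regulators, cell cycle inhibitors and PRC2. Other named genes were the 8 largest differences in each direction among called genes without overlap.

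UMI counts were summed per embryo over embryos with at least 5 members (5 control, 8 *Eed-cKO*) and compared by edgeR's quasi-likelihood test (edgeR 4.0.16, R 4.3.3, TMM, Benjamini-Hochberg at 0.05), with the embryo as a block between cell kinds. The 9 genes of the rule were left out. CPM are counts scaled to the total UMIs of a sum, without TMM factors. Single values that the rule did not use were compared by exact permutation of embryos (scipy 1.17.1). The permutation tests of Hox between members and other neurons of the same embryos were not planned. The planned test of the share of members is not given, since *Pomc* UMIs chose them. Alternatives included DESeq2 1.42.0, limma 3.58.1 (TREAT at 0.18), gene filters, thinning to 2000 UMIs, and each embryo left out. The 6% of cells with the highest doublet score per library were removed only as an alternative. Intervals and limits cover counting error only. Positions are from GENCODE vM21. Some genes that met these rules are not reported here.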

Additional observations from a re-analysis of the deposited data

Results flagged for a closer look

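In 7 of 37 groups of embryos, 1 embryo lay far from the rest by Dixon's test. That count cannot be set against a chance rate, because groups of zeros only were included and several groups measure the same cells. For *Pomc* levels and the share of members the flags are a description, since *Pomc* UMIs chose the members. Among *Eed-cKO* embryos, F502_E9 held 4.15% *Pomc*+ neurons, with the next embryo at 2.14%. F0652_E8 measured 453 CPM of *Pomc* over all cells (next 115), 440 CPM in members (next 106) and a mean of 151 *Pomc* UMIs per member (next 30.5), and it holds the cell with 1831 UMIs. F0589_E1 measured 34.0 CPM of *Pomc* in *Cga* or *Tshb* cells (next 2.96). Among control embryos, F4650_E2 alone held *Pomc* in such cells (0.294 CPM) and alone had a member with *Npy* (7.14% of its members).

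For 8 named genes the change between genotypes differed between *Pomc*+ and other neurons by the interaction test of edgeR, with adjusted p from 2.44e-05 (*Ebf3*) to 0.00426 (*Bsg*). The log2 interaction was −2.60 for *Ebf3*, −3.92 for *Crabp1*, 4.05 for *Fabp7*, 9.98 for *Apoe*, 10.2 for *Sepp1*, 3.21 for *Sparc*, 3.27 for *Nts* and 1.06 for *Bsg*. *Apoe* and *Sepp1* had 0 UMIs in control members, so their fitted values depend on the prior count and bound nothing. *Fabp7*, *Apoe*, *Sepp1*, *Sparc*, *Nts* and *Bsg* did not pass without cells that carried 2 non-neural markers or pituitary factors, and the part of those cells was not tested further.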

How the results depend on the processing

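The difference in the share of *Pomc*+ neurons, 0.922 points, kept its direction under every alternative run. It was 2.16 points with a threshold of 1 *Pomc* UMI and 0.311 with 10. It was smaller without libraries with strong *Cga* cells (0.5681), the library with most *Cga* cells (0.768), cells with 2 non-neural markers (0.487), those and pituitary-factor members (0.437) or the 2 libraries (0.460). With 1 embryo left out it was 0.633 to 1.05 (lowest without F502_E9). Over these embryos, the Hox difference was −381 to −348 CPM, the share of cells with both transporters differed by 6.20 to 12.7 points, and 81.8% to 96.5% of the *Pomc* difference lay in members and 0.432% to 13.0% in *Cga* or *Tshb* cells.

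Within *Pomc*+ neurons, the 38 calls became 0 with limma-voom TREAT, 132 with no gene filter, 17 with filterByExpr, 93 and 7 with embryos of at least 1 and 10 members, 94 with sex as a covariate, 7 for members with at least 5 *Pomc* UMIs, 13 without libraries with strong *Cga* cells, 17 without the library with most, 11 without cells with non-neural markers or pituitary factors and 12 without the 2 libraries. With 1 embryo left out, 2 to 70 were called, and F0652_E5 and F502_E6 alone moved the count by less than 1.5 times.

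Between *Pomc*+ and other neurons of control, 128 calls became 37 with no embryo term, 32 with DESeq2 (22 higher, 10 lower) and 16 with thinned cells of 2 embryos, and 58 to 139 with 1 embryo left out (58 without F4520_E4, 60 without F4650_E2). In *Eed-cKO*, 1024 became 618 with library size alone, 351 with DESeq2 (231 higher, 120 lower), 493 with thinned cells, 230 for members with at least 5 *Pomc* UMIs, 508 without libraries with strong *Cga* cells, 387 without cells with non-neural markers or pituitary factors, 547 without the 2 libraries and 577 to 764 with 1 embryo left out. The 27 interactions became 0 with thinned cells, 1 for at least 5 *Pomc* UMIs, 6 and 14 without those cells and libraries, and 9 to 34 with 1 embryo left out (9 without F502_E6, 10 without F4690_E3, 11 without F4650_E2, 16 without F0589_E1).

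Some log2 values turned direction. With thinned cells (2 control or 6 *Eed-cKO* embryos) these were *Irs4* in control (−0.53), *Isl1* (−0.19) and *Prcp* (−4.77) in *Eed-cKO*, and the interactions of *Ebf3* (5.29), *Crabp1* (2.62), *Sparc* (−0.40) and *Bsg* (−0.20). With at least 5 *Pomc* UMIs these were *Irs4* (−0.17), *Prcp* (−0.0614), *Ebf3* (8.00) and *Crabp1* (6.05). No paired analysis between genotypes was possible because they share no replicate number. The cause of these shifts was not tested. Small sums (from 23681 UMIs) limit all gene tests.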
